A study of Mus musculus with 6 samples.

Results

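The genes of mitochondrial fatty acid oxidation and ketogenesis comprised 39 named genes, listed by gene symbol with earlier results of these data known, so that counts over them are descriptions. Of these, 38 were among the 54446 genes listed in the deposited table, and all 38 were among the 16734 genes with enough counts to be tested. The gene not found there was *Tmlhe*. RNA-seq measured their transcripts in whole liver, with 1 library from each of 3 WT and 3 *Fmo5*-/- mice. All were male, 32 weeks of age, on a C57BL/6J background (C57BL/6 in the labels), and ate standard chow freely. The *Fmo5*-/- mice are a knockout line in which the gene of flavin-containing monooxygenase 5 is disrupted. The comparison is thus of whole liver from mice bred with the disruption and not of hepatocytes that lose the gene in the adult. The protein and other tissues were not measured here. Both genotypes were bred at the same place and kept in adjacent cages, and whether they were littermates is not given in the sources used here, so the genotype and any difference between litters or cages cannot be told apart. In bulk liver, fewer cells of a type and less RNA per cell cannot be told apart either.

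Fatty acids enter hepatocytes from the plasma, are bound by carrier proteins and activated to acyl-CoA, and cross into mitochondria as acyl-carnitines. In the matrix each turn of β-oxidation comprises a dehydrogenation, a hydration, a second dehydrogenation and a thiolysis, and releases acetyl-CoA, while the electrons of the acyl-CoA dehydrogenases pass to the respiratory chain through electron transfer flavoprotein. The liver condenses much of this acetyl-CoA to ketone bodies, which it exports because it holds little of the enzyme that would use them, and many genes of the pathway are targets of the fatty acid receptor PPARA.

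Between 44886286 and 52338675 reads per library were counted on genes. A normalized count is a count brought to the mean of the 6 library sizes after scaling, and levels are normalized counts unless RPKM or CPM is stated. A gene was called where the quasi-likelihood test of edgeR gave an adjusted p under 0.05. *Fmo5* (ENSMUSG00000028088.14, chr3:97628804-97655282 of mm10) had normalized counts of 30239.7 to 39808 in the WT mice and of 1071 to 1194 in the *Fmo5*-/- mice, so each mouse matched its label. The markers of hepatocytes summed to between 107977 and 136093 counts per 1000000 (CPM) in WT mice and to between 122573 and 138718 in *Fmo5*-/- mice, with most of these counts from *Alb*. Of these 7 markers, 6 had a lower mean after scaling in *Fmo5*-/- mice and 0 were called, with a median log2 fold change of -0.06, and *Hamp*, the hepcidin gene, stood at 376 to 647 CPM in WT mice and at 0.0611 to 68.9 in *Fmo5*-/- mice. All 6 of the skeletal muscle markers had a mean under 0.1 CPM. The markers of Kupffer cells and macrophages summed to between 252 and 297 CPM in WT mice and to between 399 and 755 in *Fmo5*-/- mice. The mean of each of these 10 macrophage markers was higher in *Fmo5*-/- mice, 1 of the 10 was called, and 0 of the 10 were at 0 in all mice.

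Most members had a lower mean in the liver of *Fmo5*-/- mice, and few of them passed the test. Of the 38, 3 were called, all of them lower: *Cpt2*, which returns acyl groups from carnitine to CoA inside the mitochondrion, fell by 28.7%, *Etfdh*, which passes electrons to the respiratory chain, fell by 29.98%, and *Acat1*, the thiolase at the start of ketogenesis, fell by 27.3%. No member was called higher. For comparison, edgeR called 1.37% of all genes tested in either direction and 0.693% lower. The mean was lower in *Fmo5*-/- mice for 35 of the 38 members, against 49.2% of all genes tested and 63.96% of those whose normalized counts averaged at least 500, the exceptions being *Cpt1b*, *Oxct1* and *Ucp2*. In 25 members every *Fmo5*-/- mouse lay below every WT mouse, as it did for 13.5% of all genes tested. In 2 members, *Oxct1* and *Ucp2*, every *Fmo5*-/- mouse lay above every WT mouse, as it did for 13.9% of all genes. The genotypes overlapped in the other 11. The calls lie close to the threshold: leaving out the first or second WT mouse or the first or second *Fmo5*-/- mouse left 0 members called, and leaving out the third mouse of either genotype left 3 in each case, 1 of them among the 3 named here.

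**Figure D1:**
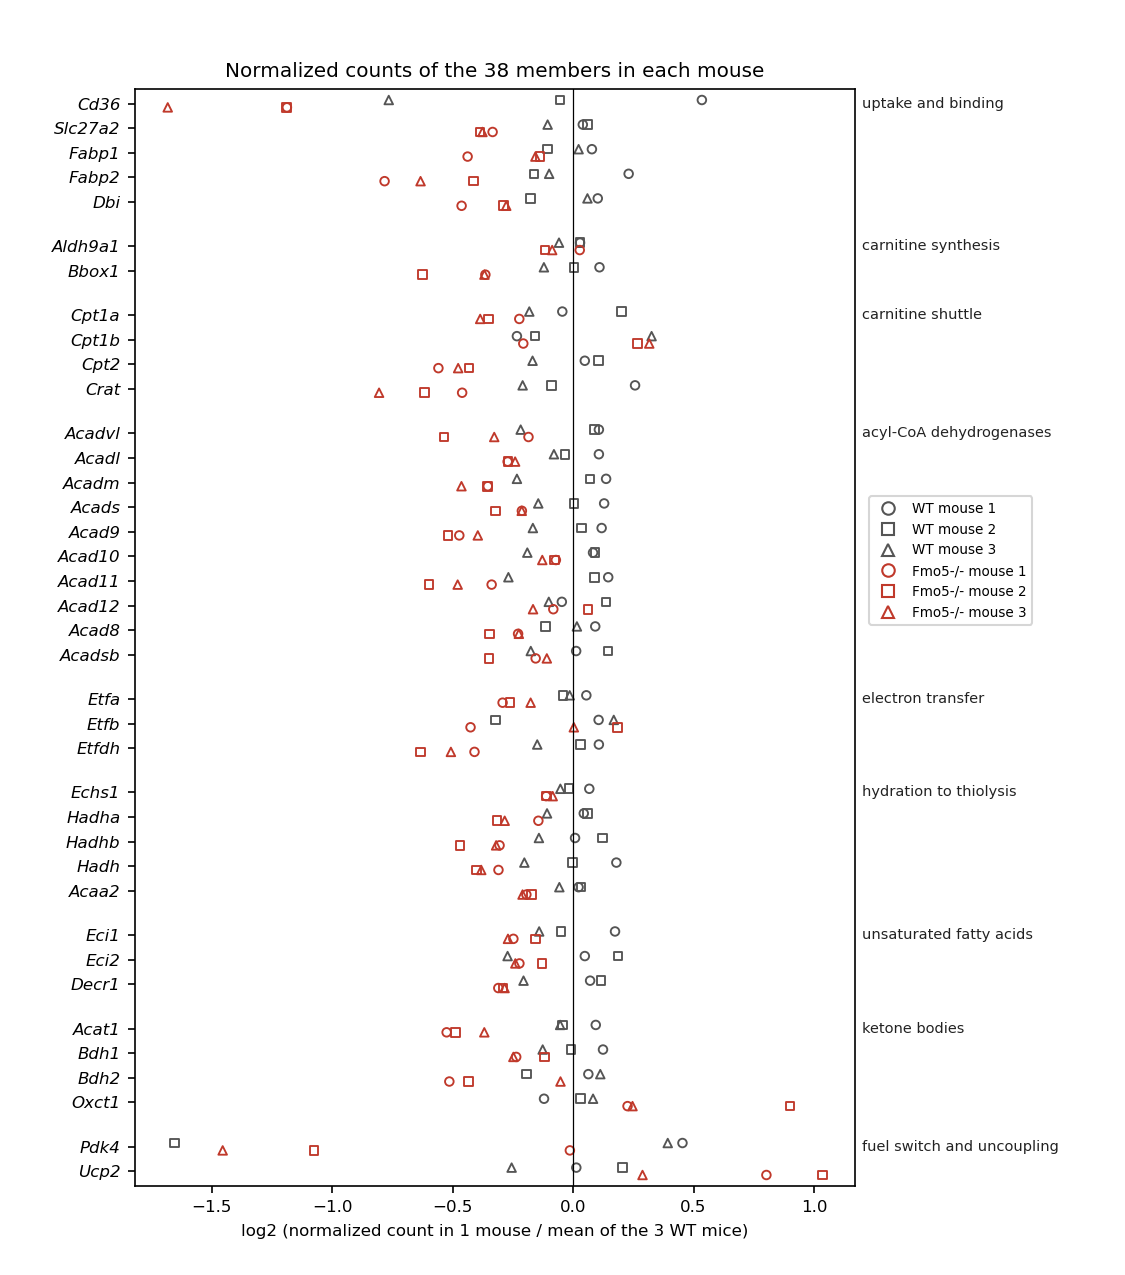
Normalized count of each of the 38 members in each mouse, drawn as log2 of its ratio to the mean of the 3 WT mice, with members ordered by role and with grey symbols for WT and red for *Fmo5*-/- mice. In 25 members all 3 red symbols lie to the left of all 3 grey ones, and in *Oxct1* and *Ucp2* all 3 lie to the right.

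The size of the differences was modest. The median log2 fold change, *Fmo5*-/- over WT, was -0.28 over the 38 members and 0.0058 over all genes tested. Some properties of the libraries also separated the genotypes. The TMM scaling factors were 0.9564 to 0.9747 in WT and 1.001 to 1.084 in *Fmo5*-/- mice, reads mapped to several places made up 11.8% to 13.1% and 10.4% to 11.5%, and unmapped reads 9.72% to 10.1% and 9.10% to 9.20%. Reads in no gene made up 6.86% to 7.02% in WT mice and 6.96%, 8.63% and 8.28% in the *Fmo5*-/- mice. The part of these in the shift of the members was not tested. At an unadjusted p under 0.05 from edgeR, 24 members were lower, against 10.2% of all genes, and 2 were higher, *Oxct1* and *Ucp2*, against 11.6% of all genes. DESeq2 on the same counts gave an adjusted p under 0.05 to 14 members that were lower and to 1, *Ucp2*, that was higher, against 4.21% and 4.75% of the genes to which it gave an adjusted p. Because abundant genes as a whole were lower in *Fmo5*-/- mice, the members were also set beside the 7819 genes whose mean normalized count was 500 or more. Of the members, 35 reached that mean, and their median log2 fold change was -0.32, against -0.062 for all such genes. With that limit set before the fit, which moves the scaling, the medians were -0.25 for the members and 0.0018 for all genes. Of these 35, 3 were called lower and 25 had every *Fmo5*-/- mouse below every WT mouse when the limit was applied after the fit, against 1.06% and 21.9% of all such genes. With the limit set before the fit, 0 of the 35 were called (edgeR adjusted p = 0.0663 for *Etfdh*, 0.0705 for *Cpt2* and 0.0709 for *Acat1*).

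**Figure D2:**
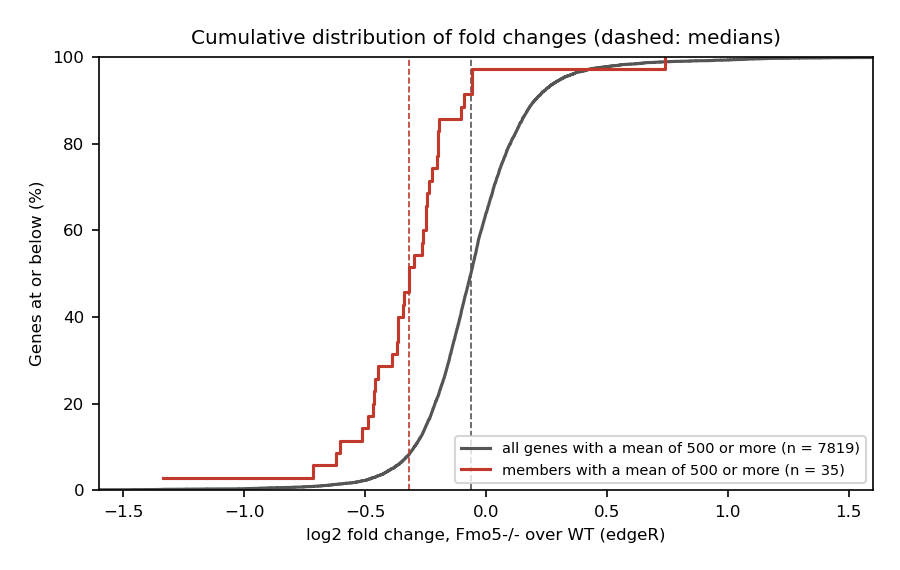
Cumulative share of genes, in percent, at or below each log2 fold change (*Fmo5*-/- over WT, edgeR), for the 7819 genes and the 35 members whose mean normalized count was 500 or more. The curve of the members lies to the left of that of all genes over most of its range, with dashed medians at -0.32 and -0.062, and *Ucp2* alone of these members stands to the right of 0, at 0.74.

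Compared per length, as reads per kilobase of exon and per 1000000 counts (RPKM), the members spanned a wide range of levels in WT liver. *Fabp1*, the liver fatty acid-binding protein, stood highest at 7679 ± 498 (SD, n = 3). *Acaa2*, the mitochondrial thiolase, followed at 712 ± 24.2, then *Dbi*, the acyl-CoA-binding protein, at 614 ± 62.1, *Slc27a2*, a very-long-chain acyl-CoA synthetase and fatty acid transporter, at 279 ± 17.3, and *Etfa*, the α subunit of electron transfer flavoprotein, at 226 ± 7.85. The means of *Acaa2* and *Dbi* differed by more than the sum of their SDs, and so did those of each other pair of neighbours among these 5. Among the acyl-CoA dehydrogenases, *Acadm* (107 ± 14.04 RPKM) and *Acadl* (96.6 ± 6.60) were within their spread of each other, as were *Acadl* and *Acadvl* (87.0 ± 10.6). At the low end stood *Oxct1*, the ketone body-using enzyme, at 1.06 ± 0.0764 RPKM, and *Cpt1b*, the muscle form of carnitine palmitoyltransferase 1, at 0.144 ± 0.0317. The liver form, *Cpt1a*, stood at 38.8 ± 5.30 RPKM.

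**Figure D3:**
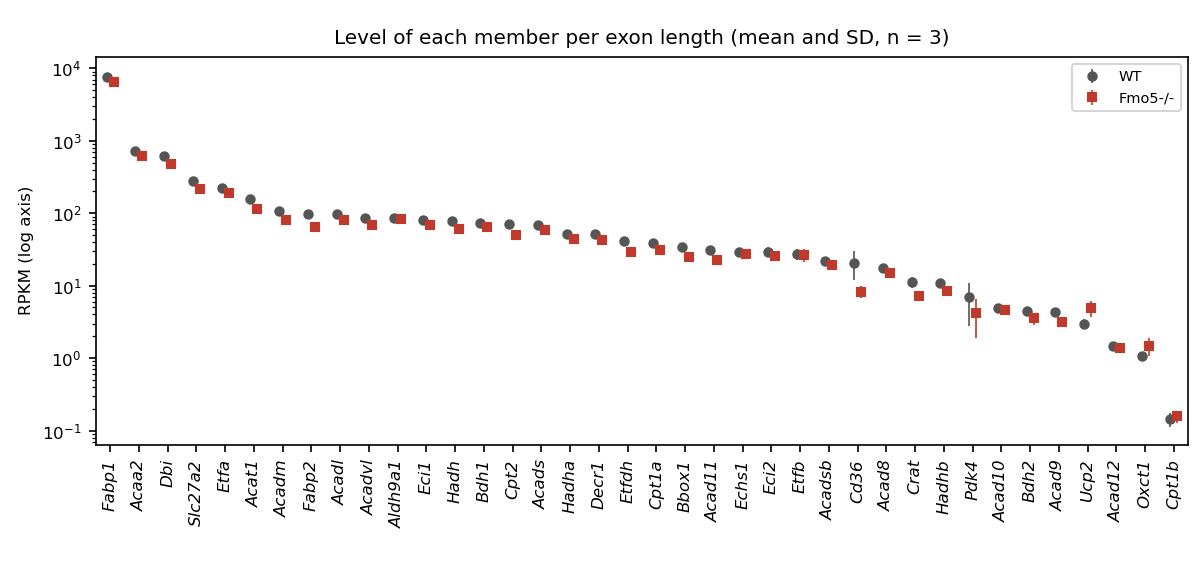
Level of each member in RPKM on a log axis, in order of the WT mean, with the mean and SD of 3 WT mice (grey circles) and 3 *Fmo5*-/- mice (red squares). *Fabp1* stands above all other members and *Cpt1b* below all others in both genotypes.

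The members together took 1.36%, 1.28% and 1.225% of the counts on genes in the WT mice and 1.06%, 1.21% and 1.15% in the *Fmo5*-/- mice. *Fabp1* made up a large share of these counts, between 0.314% and 0.429% of all counts on genes. Without it the members took 0.927%, 0.899% and 0.813% in the WT mice and 0.744%, 0.790% and 0.7603% in the *Fmo5*-/- mice. With or without *Fabp1*, every *Fmo5*-/- mouse lay below every WT mouse.

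Promoter windows ran from 250 bases before to 50 after a transcription start. In the set of RefSeq windows used here (GRCm38.p6) they were found for 32 of the 39 members, as 34 windows. None was found in that set for *Acad9*, *Acaa2*, *Acat1*, *Cpt1b*, *Crat*, *Decr1* and *Tmlhe*, which does not show that RefSeq lacks their starts. The windows were searched on both strands for the GC box GGGCGG, the CCAAT box CCAAT, the TATA box TATAAA and the direct repeat AGGNCANAGGNCA, a loose form of the element that PPARA and other nuclear receptors bind. None of these 4 is part of another. The strict repeat AGGTCANAGGTCA and its single arm AGGTCA, which the strict repeat holds, were searched too and are not in capitals. The windows of *Cpt2* and *Etfdh* are shown because these members were called, that of *Fabp1* because it alone held the direct repeat, and that of *Hadhb* because *Hadha* lies head to head with it. The GENCODE starts of these genes are 86 bases apart, and the RefSeq windows place them farther apart. Capitals mark the matches to these 4 motifs, and each sequence is read 5′ to 3′ on the strand of its gene.
Cpt2: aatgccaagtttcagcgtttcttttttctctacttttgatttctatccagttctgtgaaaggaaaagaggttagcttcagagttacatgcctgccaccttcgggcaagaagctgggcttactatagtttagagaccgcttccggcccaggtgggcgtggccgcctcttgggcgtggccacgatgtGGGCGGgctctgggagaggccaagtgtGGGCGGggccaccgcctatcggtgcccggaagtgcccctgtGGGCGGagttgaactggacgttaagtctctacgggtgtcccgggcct
Etfdh: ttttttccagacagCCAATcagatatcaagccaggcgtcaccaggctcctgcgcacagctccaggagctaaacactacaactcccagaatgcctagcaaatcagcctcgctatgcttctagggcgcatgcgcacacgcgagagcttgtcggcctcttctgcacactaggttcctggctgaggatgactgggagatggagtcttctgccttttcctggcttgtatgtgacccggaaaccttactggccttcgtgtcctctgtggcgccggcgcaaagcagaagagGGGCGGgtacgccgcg
Fabp1: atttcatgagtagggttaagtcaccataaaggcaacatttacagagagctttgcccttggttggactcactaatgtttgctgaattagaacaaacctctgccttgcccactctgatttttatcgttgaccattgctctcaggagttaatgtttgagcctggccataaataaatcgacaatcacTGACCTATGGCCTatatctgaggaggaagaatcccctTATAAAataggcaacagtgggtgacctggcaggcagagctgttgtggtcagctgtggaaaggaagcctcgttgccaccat
Hadhb: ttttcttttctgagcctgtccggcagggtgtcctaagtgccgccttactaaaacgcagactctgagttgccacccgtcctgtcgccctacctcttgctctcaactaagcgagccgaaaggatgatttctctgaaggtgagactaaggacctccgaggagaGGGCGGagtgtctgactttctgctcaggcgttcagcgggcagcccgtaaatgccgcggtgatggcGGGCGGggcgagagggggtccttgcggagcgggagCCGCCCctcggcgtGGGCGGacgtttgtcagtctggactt

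The window of *Cpt2* lies at chr4:107923540-107923839 on the minus strand and holds GC boxes that begin at positions -65, -38 and 4 relative to the start. That of *Etfdh*, at chr3:79628718-79629017 on the minus strand, has a CCAAT box at -236 and a GC box at 35. Both positions are from the RefSeq start, and the GENCODE start of *Etfdh*, at 79629500, lies outside this window. That of *Fabp1*, at chr6:71199629-71199928 on the plus strand, has the direct repeat at -67, printed as TGACCTATGGCCT because the repeat reads on the opposite strand, and a TATA box at -30. That of *Hadhb*, at chr5:30155003-30155302 on the plus strand, has GC boxes at -90, -25, 11 and 25. A GC box was found in 55.9% of the members' windows and in 35.7% of all 32851 windows of the same length, and a CCAAT box in 44.1% and 37.4%. A TATA box was found in 5.88% and 13.6%. The direct repeat was found in 1 of the 34 windows, against 0.381% of all windows, and its strict form in 0, against 0.0396%. The single arm was found in 20.6% of the members' windows and 16.3% of all, and 1 of its matches lies within the repeat of *Fabp1*. The median GC content was 60.5% in the members' windows and 52.7% in all. These are counts of letters in the windows and say nothing of binding, and elements outside them were not searched.

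The members of fatty acid uptake and binding were *Cd36*, *Slc27a2*, *Fabp1*, *Fabp2* and *Dbi*. Of these 5, 0 were called by edgeR, 4 had an unadjusted edgeR p under 0.05 and 4 were called by DESeq2, and in all 5 every *Fmo5*-/- mouse lay below every WT mouse. *Cd36*, the fatty acid translocase of the plasma membrane, had the lowest log2 fold change of all members. Its normalized counts were 5263, 3501 and 2137 in WT livers, against 1594, 1593 and 1131 in the *Fmo5*-/- livers. The WT mice were spread widely, the first highest and the third lowest, while the *Fmo5*-/- mice lay together below them. On the log2 scale the fold change was -1.34 (95% confidence interval -2.22 to -0.46, edgeR adjusted p = 0.114, DESeq2 adjusted p = 0.0114). It was called only without the third WT mouse, at -1.604 (edgeR adjusted p = 0.040). The other 5 fits that left out a mouse gave an edgeR adjusted p of up to 0.315, and without the first WT mouse the fold change was -0.97. *Cd36* is also made by macrophages, whose markers summed higher in the *Fmo5*-/- mice (399 to 755 CPM) than in the WT mice (252 to 297 CPM) while *Cd36* was lower. Adipocyte markers summed to 513, 934 and 632 CPM in WT livers and to 1424, 944 and 533 CPM in the *Fmo5*-/- livers, mostly from *Pck1*. Of the 3 tested, 1 was called and 1 had a lower mean in *Fmo5*-/- mice. *Cidec* had 9.66, 7.93 and 5.85 CPM in WT livers, against 2.83, 4.01 and 3.36. *Fabp4* had 10.2, 7.37 and 6.15 CPM, against 11.3, 30.9 and 7.62. *Adipoq*, *Plin1* and *Lep* had too few counts to be tested. *Adipoq* had 0.789, 0.134 and 0.0200 CPM in WT livers, against 0.0764, 0.163 and 0. *Plin1* had 0.893, 0.156 and 0 CPM, against 0.0955, 0.0611 and 0.0415. *Lep* had 0.166, 0.0223 and 0 CPM, against 0.0191, 0 and 0. In the WT mice *Cidec*, *Fabp4*, *Adipoq*, *Plin1* and *Lep* each had the order of *Cd36*, while *Pck1* (491, 918 and 620 CPM) did not. The part of macrophages and adipocytes in the level of *Cd36* was not tested.

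*Fabp2*, the intestinal-type fatty acid-binding protein, had normalized counts of 5383, 4099.7 and 4282 in WT livers, against 2666, 3444 and 2957 in the *Fmo5*-/- livers, a log2 fold change of -0.60 (standard error 0.13, edgeR adjusted p = 0.0564, DESeq2 adjusted p = 0.000845). *Slc27a2* had 52609, 53351 and 47543 in WT livers, against 40578, 39111 and 39407 in the *Fmo5*-/- livers, where the 3 mice differed little from each other. Its log2 fold change was -0.37 (standard error 0.089, edgeR adjusted p = 0.0710, DESeq2 adjusted p = 0.00231). *Dbi* averaged 42598 ± 4310.5 in WT and 33633 ± 2373 in *Fmo5*-/- livers (SD, n = 3 each), and the log2 fold change was -0.34 (edgeR adjusted p = 0.114). *Fabp1* differed least in this group. It averaged 207204 ± 13432 and 175732 ± 19806, a log2 fold change of -0.24 whose interval, -0.49 to 0.02, held 0, and it was -0.15 without the first *Fmo5*-/- mouse.

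Of carnitine synthesis, *Bbox1* and *Aldh9a1* were measured, and edgeR called 0 of the 2, while 1, *Bbox1*, had an unadjusted p under 0.05 and a DESeq2 call. *Bbox1*, γ-butyrobetaine hydroxylase, makes carnitine in its last step. Its normalized counts were 7931, 7367 and 6758 in WT livers, against 5710.5, 4767 and 5695 in the *Fmo5*-/- livers, without overlap. This gave a log2 fold change of -0.45 (standard error 0.10, edgeR adjusted p = 0.0640, DESeq2 adjusted p = 0.00404). *Aldh9a1*, the aldehyde dehydrogenase that makes γ-butyrobetaine, had 13622 to 14473 in WT and 13088 to 14461 in *Fmo5*-/- mice, which overlap, and a log2 fold change of -0.06 with an interval of -0.25 to 0.13. The interval of *Bbox1*, -0.68 to -0.22, overlaps that of *Aldh9a1*, and the difference between these genes was not tested.

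In the carnitine shuttle, the inner enzyme was called and the outer one was not. *Cpt2* (ENSMUSG00000028607.16, chr4:107903981-107923610) had normalized counts of 8456, 8801 and 7276 in WT livers, against 5548, 6059 and 5873 in the *Fmo5*-/- livers. The *Fmo5*-/- mice were close together and all lay below the third WT mouse, the lowest of its genotype. The log2 fold change was -0.49 (standard error 0.095, interval -0.70 to -0.27, edgeR adjusted p = 0.0468, DESeq2 adjusted p = 0.000413). Leaving out 1 mouse at a time moved it between -0.56 and -0.43, and the call held only without the third WT mouse (edgeR adjusted p = 0.0389) and was lost without any other mouse, with an adjusted p of up to 0.144. With the counts of 1 strand the edgeR adjusted p was 0.0505. *Cpt1a*, the malonyl-CoA-sensitive gate of the pathway on the outer membrane, had 14032, 16640.0 and 12760.1 in WT livers, against 12398, 11338.5 and 11078 in the *Fmo5*-/- livers. These did not overlap either, though the first *Fmo5*-/- mouse came near the third WT mouse. The log2 difference was -0.32 (interval -0.57 to -0.07, edgeR adjusted p = 0.146, DESeq2 adjusted p = 0.070), and -0.21 without the second WT mouse. The intervals of *Cpt1a* and *Cpt2* overlap, so the call in one and not in the other does not show that they differ, and the difference was not tested.

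*Crat*, carnitine acetyltransferase, which moves short acyl groups between CoA and carnitine, had normalized counts of 3520.2, 2769.6 and 2547 in WT livers, against 2139.8, 1921 and 1685 in the *Fmo5*-/- livers. The genotypes did not overlap. On the log2 scale the difference was -0.62 (standard error 0.14, edgeR adjusted p = 0.0594, DESeq2 adjusted p = 0.00102). *Cpt1b* was scarce, with 20.1 to 29.7 normalized counts in WT and 20.5 to 29.5 in *Fmo5*-/- mice, and a log2 fold change of 0.14 with an interval of -0.50 to 0.78. With the counts of 1 strand it was 0.95 (edgeR adjusted p = 0.161). In GENCODE vM21, exons of another gene on the same strand, Gm44502, cover 81.4% of its exon bases, and reads in both were not counted, so its level is uncertain. *Slc25a20*, the carrier between CPT1A and CPT2 and not among the 38, was called lower, with 7165, 7737 and 6759 in WT livers, against 5516, 5346 and 5102 in the *Fmo5*-/- livers (log2 fold change -0.44, edgeR adjusted p = 0.0468). That call was lost without each of the 6 mice in turn, at an edgeR adjusted p of 0.0544 to 0.133.

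The 10 acyl-CoA dehydrogenases were all lower in the mean. EdgeR called 0 of the 10 and DESeq2 called 3. Their median log2 fold change was -0.26, in 6 of them every *Fmo5*-/- mouse lay below every WT mouse, and in 7 the unadjusted edgeR p was under 0.05. The 4 that act on straight chains, from very long to short, had log2 fold changes between -0.39 and -0.25. *Acadm*, the medium-chain enzyme, had normalized counts of 22362, 21355 and 17299.7 in WT livers, against 15907, 15893 and 14746 in the *Fmo5*-/- livers, a log2 fold change of -0.39 (edgeR adjusted p = 0.0938, DESeq2 adjusted p = 0.0166). The first and second WT mice were well above all others and the third stood between. *Acadl*, the long-chain enzyme, had 8938 to 10173 in WT and 7823 to 7993 in *Fmo5*-/- mice (log2 fold change -0.26, edgeR adjusted p = 0.121). *Acads*, the short-chain enzyme, had 6962 to 8416 and 6158 to 6641 (log2 fold change -0.25, edgeR adjusted p = 0.167). *Acadvl*, the very-long-chain enzyme of the inner membrane, had 9808 to 12285 and 7869 to 10031, which overlap (log2 fold change -0.34, edgeR adjusted p = 0.152). In the same annotation, exons of Dvl2 on the opposite strand cover 42.9% of its exon bases and the counts are not strand-specific, so the level of *Acadvl* is uncertain. With the counts of 1 strand its log2 fold change was -0.20 (edgeR adjusted p = 0.253).

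*Acad9*, an acyl-CoA dehydrogenase that also serves in the assembly of respiratory complex I, lay just outside the threshold, as *Acat1* lay just inside. Its normalized counts were 1882, 1775 and 1544 in WT livers, against 1249, 1209.8 and 1318 in the *Fmo5*-/- livers. This amounted to a log2 fold change of -0.46 (standard error 0.092, edgeR adjusted p = 0.05002, DESeq2 adjusted p = 0.00275). It was called by edgeR with the third WT mouse left out (adjusted p = 0.0446), with the third *Fmo5*-/- mouse left out (0.04199), with RLE size factors (0.0495) and with no filter except at least 1 count (0.000211). *Acad11*, which acts on longer and substituted acyl-CoAs, had 16371, 15745 and 12283 in WT livers, against 11704, 9774 and 10614 in the *Fmo5*-/- livers. For it the third WT mouse stood near the *Fmo5*-/- mice but above them, and the log2 fold change was -0.47 (edgeR adjusted p = 0.0827, DESeq2 adjusted p = 0.00972). The neighbouring genes *Acad10* and *Acad12*, 2088 bases apart on chromosome 5, differed little: their log2 fold changes were -0.09 (interval -0.30 to 0.12) and -0.06 (-0.31 to 0.20), and the genotypes overlapped in both. *Acad8* and *Acadsb* serve the breakdown of branched-chain amino acids rather than of fatty acids. *Acad8* had 3309 to 3818 in WT and 2816 to 3064 in *Fmo5*-/- mice (log2 fold change -0.27, edgeR adjusted p = 0.116), while *Acadsb* overlapped (log2 fold change -0.20, edgeR adjusted p = 0.317). It was -0.12 without the second WT mouse and -0.13 without the second *Fmo5*-/- mouse.

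Electron transfer held 1 of the 3 called members. *Etfdh* (ENSMUSG00000027809.14, chr3:79603788-79629500), the dehydrogenase that takes electrons from the flavoprotein to ubiquinone, had normalized counts of 16383, 15539.7 and 13720.1 in WT livers, against 11453, 9805 and 10700.1 in the *Fmo5*-/- livers. The highest *Fmo5*-/- mouse lay below the lowest WT mouse. The log2 fold change was -0.51 (standard error 0.10, interval -0.74 to -0.29, edgeR adjusted p = 0.0493, DESeq2 adjusted p = 0.000308). Leaving out 1 mouse at a time moved it between -0.58 and -0.45 and ended the call in each of 6 fits, at an edgeR adjusted p of 0.0512 to 0.148, and so did the counts of 1 strand (edgeR adjusted p = 0.0506). *Etfa*, which with *Etfb* makes up the flavoprotein itself, had 19628 to 20991 in WT and 16494 to 17881 in *Fmo5*-/- mice, without overlap (log2 fold change -0.24, edgeR adjusted p = 0.1401). *Etfb* had 1679.6, 1249 and 1755 in WT livers, against 1162, 1773 and 1564 in the *Fmo5*-/- livers. The genotypes overlapped fully, and the log2 fold change of -0.06 (interval -0.47 to 0.36) changed sign without the first or the third WT mouse or the first *Fmo5*-/- mouse. Exons of Gm45233 on the same strand cover 53.0% of the exon bases of *Etfb*, so that its counts are a part of its reads.

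The 5 enzymes from hydration to thiolysis stood lower in all *Fmo5*-/- mice than in any WT mouse. EdgeR called 0 of the 5, 4 had an unadjusted p under 0.05, and DESeq2 called 2, *Hadhb* and *Hadh*. *Hadha* and *Hadhb* encode the α and β subunits of the mitochondrial trifunctional protein, which takes long chains through the last steps of a turn, and lie head to head on chromosome 5. *Hadha* had normalized counts of 22938, 23170.1 and 20637 in WT livers, against 20128, 17869 and 18268 in the *Fmo5*-/- livers (log2 fold change -0.25, edgeR adjusted p = 0.169). *Hadhb* had 3566, 3859.8 and 3214 in WT livers, against 2869, 2562 and 2841 in the *Fmo5*-/- livers (log2 fold change -0.36, edgeR adjusted p = 0.0763, DESeq2 adjusted p = 0.0193). In both, the second WT mouse was the highest and the second *Fmo5*-/- mouse the lowest of the 6. *Hadh*, the dehydrogenase for shorter hydroxyacyl-CoAs, had 21219.7, 18712 and 16282 in WT livers, against 15113, 14188 and 14382 in the *Fmo5*-/- livers (log2 fold change -0.36, edgeR adjusted p = 0.104, DESeq2 adjusted p = 0.0261). *Acaa2* had 50597 to 53876 and 45511 to 46678 (log2 fold change -0.19, edgeR adjusted p = 0.223). *Echs1*, the short-chain enoyl-CoA hydratase, had the smallest difference of the 5, with 11386 to 12375 against 10930.0 to 11137 (log2 fold change -0.10, interval -0.28 to 0.08).

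The 3 auxiliary enzymes for unsaturated fatty acids were lower in the mean. EdgeR and DESeq2 called 0 of the 3, and 1, *Decr1*, had an unadjusted edgeR p under 0.05. *Decr1*, the dienoyl-CoA reductase, had normalized counts of 10266, 10589.7 and 8475 in WT livers, against 7882, 7988 and 8025 in the *Fmo5*-/- livers. The *Fmo5*-/- mice differed from each other by a coefficient of variation of 0.932%, the smallest of any member, and the WT mice by 11.7%. Its log2 fold change was -0.30 (interval -0.52 to -0.07, edgeR adjusted p = 0.135). Of the isomerases that shift the double bond, *Eci1* had 7610.0 to 9468 in WT and 6957 to 7533 in *Fmo5*-/- mice (log2 fold change -0.22, edgeR adjusted p = 0.231). Its log2 fold change was -0.12 when the first WT mouse was left out. *Eci2* had 6533 to 8978 and 6681 to 7212, with the third WT mouse below every *Fmo5*-/- mouse (log2 fold change -0.20, edgeR adjusted p = 0.372). It was -0.09 without the second WT mouse and -0.31 without the third.

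Among the genes of ketone bodies, the enzyme that starts their synthesis was called lower and the one that uses them stood higher in the mean. *Acat1* (ENSMUSG00000032047.5, chr9:53580522-53610382), mitochondrial acetoacetyl-CoA thiolase, had normalized counts of 30876, 28046.5 and 27869 in WT livers, against 20099, 20608 and 22401 in the *Fmo5*-/- livers. The gap between the genotypes was wider than the spread within either. The log2 fold change was -0.46 (standard error 0.091, interval -0.67 to -0.25, edgeR adjusted p = 0.0494, DESeq2 adjusted p = 0.000220). Leaving out 1 mouse at a time moved it between -0.51 and -0.40, and the call held without the third *Fmo5*-/- mouse (edgeR adjusted p = 0.0416) and was lost without each of the others, with an adjusted p of up to 0.162. It was also lost with the counts of 1 strand (edgeR adjusted p = 0.0548) and with the 20 most abundant genes left out of the scaling (0.0515). *Acat1* also closes the breakdown of isoleucine, so it is not particular to ketogenesis.

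*Bdh1*, which reduces acetoacetate to 3-hydroxybutyrate in mitochondria, had normalized counts of 12832 to 15265 in WT and 11794 to 12894 in *Fmo5*-/- mice, with a slight overlap (log2 fold change -0.20, edgeR adjusted p = 0.257). This became -0.13 when the first WT mouse was left out. *Bdh2*, a cytosolic relative, had 956, 800 and 990 in WT livers, against 641, 677 and 883 in the *Fmo5*-/- livers. Of the latter, only the third reached into the range of the WT mice (log2 fold change -0.32, interval -0.63 to -0.01, edgeR adjusted p = 0.213). *Oxct1*, succinyl-CoA:3-oxoacid CoA-transferase, the step of ketone body use that hepatocytes hold little of, had 176, 195 and 202 in WT livers, against 224, 357 and 227 in the *Fmo5*-/- livers. The second *Fmo5*-/- mouse stood well above the other 5 and the other two *Fmo5*-/- mice only slightly above the WT mice. This gave a log2 fold change of 0.49 (interval 0.05 to 0.94, edgeR adjusted p = 0.190, DESeq2 adjusted p = 0.151), and of 0.24 without the second *Fmo5*-/- mouse (edgeR adjusted p = 0.504). In the first, the second and the third *Fmo5*-/- mouse the macrophage markers summed to 714, 755 and 399 CPM, the stellate cell markers to 241, 376 and 275 CPM, and the lymphocyte markers to 39.3, 43.3 and 28.6 CPM. In the WT mice, in the same order, these sums were 282, 297 and 252 CPM, 240.5, 229.6 and 271 CPM, and 31.1, 16.4 and 45.8 CPM. The largest part of the lymphocyte sums was *Ighm*, with 28.3, 22.1 and 20.5 CPM in the *Fmo5*-/- mice and 23.3, 11.6 and 40.2 CPM in the WT mice. Among the *Fmo5*-/- mice each other lymphocyte marker was highest in the second, such as *Cd3g* (2.01, 4.99 and 1.14 CPM). Of the stellate cell markers 7 of 8 (median log2 fold change 0.28) and of the lymphocyte markers 7 of 8 (0.84) had a higher mean in *Fmo5*-/- mice, and edgeR called 0 of either. The sums of endothelial cell and cholangiocyte markers were also highest of this genotype in the second mouse, as *Oxct1* was. Those of adipocyte markers (1424, 944 and 533 CPM) and hepatocyte markers (138718, 122573 and 125285 CPM) were highest in the first. Most of the adipocyte sums came from *Pck1* (1410, 909 and 522 CPM). *Fabp4* (11.3, 30.9 and 7.62 CPM) and *Cidec* (2.83, 4.01 and 3.36 CPM) were highest in the second. So was the scarce *Adipoq*, while *Plin1* and *Lep*, also scarce, were highest in the first. The part of these cell types in the level of *Oxct1* was not tested.

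**Figure D4:**
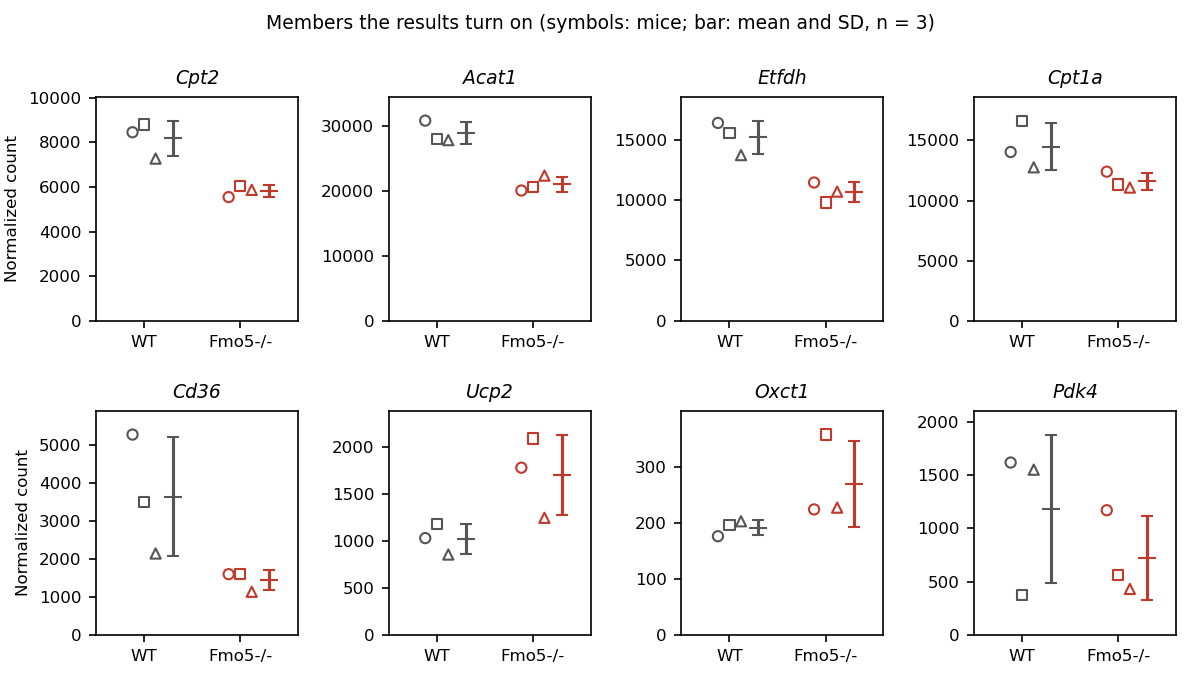
Normalized counts, on linear axes from 0, of 8 members in each of 3 WT (grey) and 3 *Fmo5*-/- (red) mice, with circles, squares and triangles for the first, the second and the third mouse of a genotype and bars for the mean and SD. The genotypes do not overlap in *Cpt2*, *Acat1*, *Etfdh*, *Cpt1a* and *Cd36* (lower), nor in *Ucp2* and *Oxct1* (higher), and they overlap in *Pdk4*.

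The remaining members were an inner membrane carrier and a kinase of fuel choice. *Ucp2*, an uncoupling protein homologue and metabolite carrier of the inner membrane, was the member with the highest log2 fold change. Its normalized counts were 1027, 1174 and 853 in WT livers, against 1776, 2085 and 1243 in the *Fmo5*-/- livers. The third *Fmo5*-/- mouse was only just above the highest WT mouse. On the log2 scale the fold change was 0.74 (standard error 0.20, interval 0.28 to 1.20, edgeR adjusted p = 0.0938, DESeq2 adjusted p = 0.00388). It was called only without the third *Fmo5*-/- mouse, at 0.92 (edgeR adjusted p = 0.00977), and was 0.57 without the second (edgeR adjusted p = 0.229). *Ucp2* is known to be abundant in macrophages, whose markers gave these sums of 714, 755 and 399 CPM in the *Fmo5*-/- mice and 282, 297 and 252 CPM in the WT mice. Within each genotype the mice had the same order for *Ucp2* as for these markers, and the part of these cells in its level was not tested. *Pdk4*, the kinase that shuts pyruvate dehydrogenase in fasting, varied more than any other member within a genotype. It had 1619, 375 and 1552 in WT livers, against 1171, 561 and 431 in the *Fmo5*-/- livers, which are coefficients of variation of 59.2% and 54.8%. The interval of its log2 fold change of -0.71 ran from -2.59 to 1.17, so that no difference was detectable, and it moved to -1.25 when the first *Fmo5*-/- mouse was left out and to -0.42 when the first WT mouse was.

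**Figure D5:**
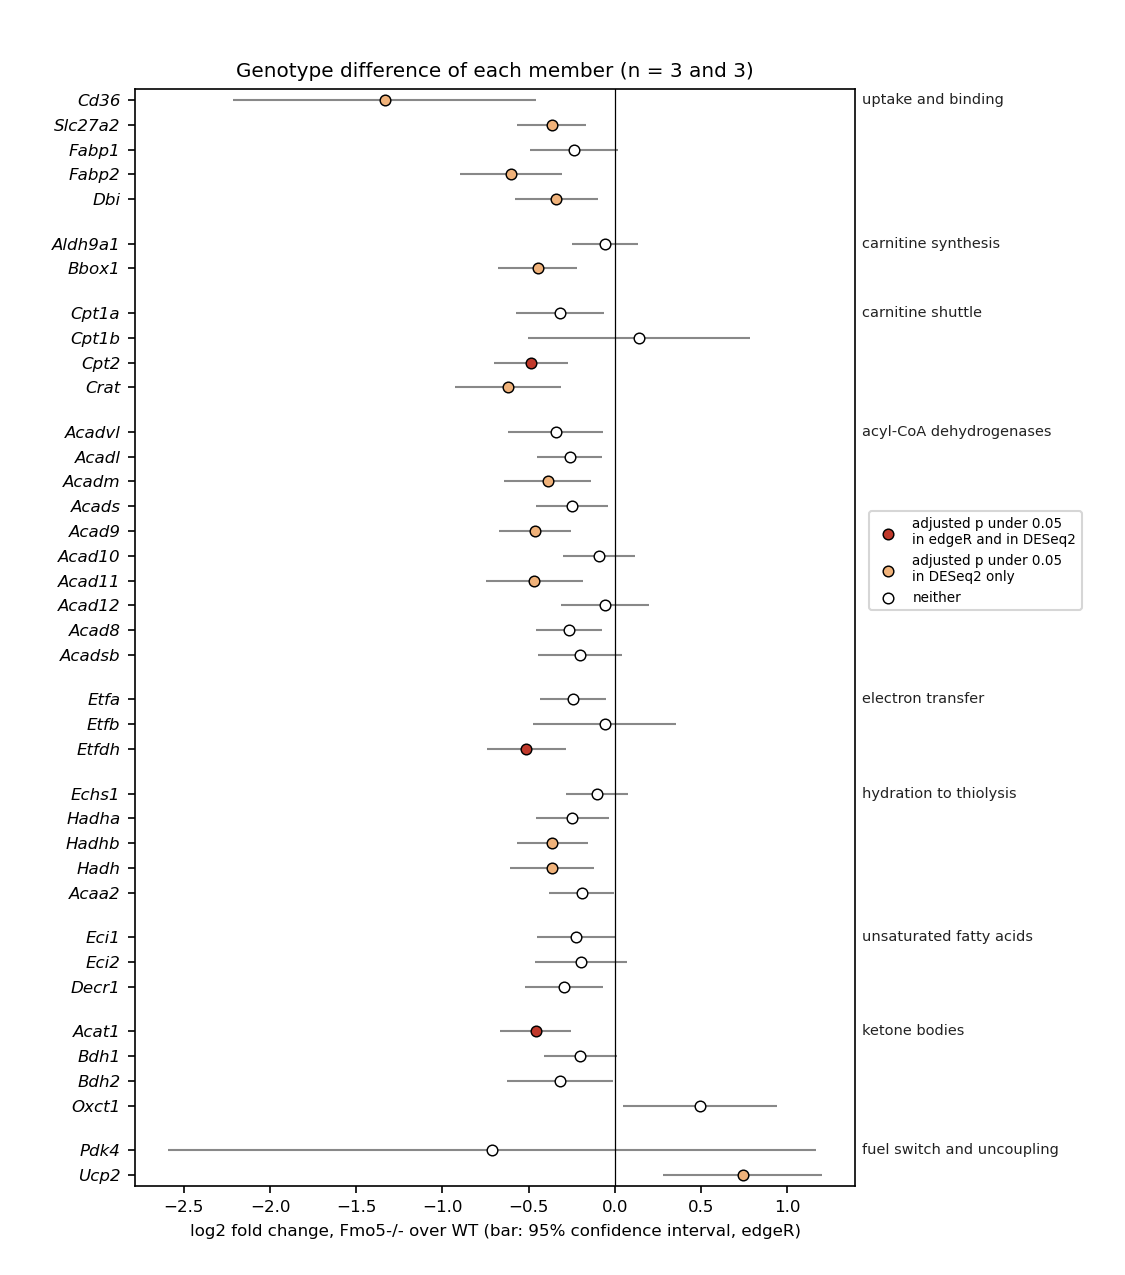
Log2 fold change, *Fmo5*-/- over WT, of each member with its 95% confidence interval derived from the edgeR fit, ordered by role. Filled red points passed an adjusted p of 0.05 in edgeR and DESeq2 (*Cpt2*, *Etfdh* and *Acat1*), orange points in DESeq2 alone (12 members, *Ucp2* the one among them to the right of 0), and open points in neither.

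The mice of a genotype were not alike across the members. The third WT mouse was the lowest of the WT mice in 28 of the 38 members, against 42.8% of the genes with a mean of 500 or more, and the first WT mouse was the highest in 22, against 32.7% of such genes. The *Fmo5*-/- mice were the lowest of their genotype in 13, 13 and 12 members, against 27.3%, 48.4% and 24.2% of such genes. The coefficient of variation was larger among the WT mice than among the *Fmo5*-/- mice in 29 of the 38 members, against 51.4% of all genes tested. Without the third WT mouse the median log2 fold change of the members was -0.31, and without the first WT mouse it was -0.24. Leaving out 1 mouse moved the log2 fold change by over 1.5 times, or changed its sign, in 14 of the 38 members, of which 0 were among the 3 called. Besides those given above, these were *Acad10* (-0.17 to -0.04), *Acad12* (-0.12 to 0.02), *Aldh9a1* (-0.10 to -0.03), *Cpt1b* (0.04 to 0.34), *Echs1* (-0.12 to -0.06) and *Etfb* (-0.20 to 0.09).

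*Fmo5* lies on chromosome 3, as do 6 members, which were all lower in the mean. Counted from *Fmo5*, they lie at -61.6 Mb (*Acad9*), -18.03 Mb (*Etfdh*), 25.3 Mb (*Fabp2*), 33.6 Mb (*Hadh*), 37.7 Mb (*Bdh2*) and 56.3 Mb (*Acadm*). Their median log2 fold change was -0.43, and in 5 of the 6 every *Fmo5*-/- mouse lay below every WT mouse, as it did for 20.4% of the tested genes of the chromosome. One of these members, *Etfdh*, was called, where edgeR called 2.66% of those genes lower. The 32 members on other chromosomes had a median of -0.25 and included 2 of the 3 calls.

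Genes of the same pathway outside the 38 were counted from lists of known function. Of 19 other genes of mitochondrial fatty acid oxidation and ketogenesis, 1 was called lower (*Slc25a20*) and none higher. In 15 the mean was lower in *Fmo5*-/- mice. That held for 49.2% of all genes tested and 63.96% of those with a mean of 500 or more. The median log2 fold change of the 19 was -0.12, against 0.0058 and -0.062 in these 2 sets. DESeq2 gave 3 of the 19 an adjusted p under 0.05, all lower, against 4.21% of the genes to which it gave an adjusted p. Of 25 genes comprising PPARA, its partners and its targets outside the mitochondrial route, 2 were called, both lower, and the median was -0.39. These were *Pex11a*, a peroxisome division factor, and *Fgf21*, the hormone of fasting. *Pex11a* averaged 5248 ± 983 in WT and 2670.0 ± 66.9 in *Fmo5*-/- livers (SD, n = 3 each), and the log2 fold change was -0.97 (edgeR adjusted p = 0.0133), and the call was lost without the first *Fmo5*-/- mouse (edgeR adjusted p = 0.0816). *Fgf21* averaged 122 ± 30.3 and 32.9 ± 15.8 (log2 fold change -1.89, edgeR adjusted p = 0.0494), and its call was lost without any 1 of the WT mice or the first *Fmo5*-/- mouse, at an edgeR adjusted p of up to 0.141. DESeq2 gave 7 of the 25 an adjusted p under 0.05, all lower. *Ppara* itself had normalized counts of 4394, 4623 and 3541 in WT livers, against 3492, 2386 and 3725 in the *Fmo5*-/- livers, which overlap (log2 fold change -0.39, interval -0.79 to 0.02, edgeR adjusted p = 0.248). Of 12 tested relatives of the members in the same gene families, such as *Pdk2*, *Fabp5* and *Slc27a5*, 0 were called by edgeR or DESeq2, 0 had an unadjusted edgeR p under 0.05, and the median log2 fold change was 0.11.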

How the data were processed

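RNA-seq was run on whole liver of 3 WT and 3 *Fmo5*-/- mice, with 1 library of single 75-base reads per mouse. The authors clipped adapters, mapped reads to mm10 with STAR and deposited its counts per gene, of reads mapped to 1 place, for both strands together and for each alone; the counts of both strands together were analysed. The deposited signal columns hold these counts after division by a single size factor for each library, which was checked on the values. The deposited columns of the authors' own comparison hold the mean, fold change, its error, the statistic and p-values, and were not used. The deposited columns of other counts, of each strand, were used in 1 alternative. The release of the gene annotation is not given in the sources used here. 0 columns belonged to samples without a label.

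Genes were kept with filterByExpr (minimum count 10), normalized with TMM factors and tested in edgeR 4.0.16 (R 4.3.3) with its robust quasi-likelihood fit, with Benjamini-Hochberg adjustment over 16734 genes and a threshold of 0.05. Standard errors and 95% confidence intervals are from that fit, whose biological coefficient of variation was 15%. DESeq2 1.42.0, other scalings and filters, the reads of 1 strand and leaving out each library were alternatives. No p-value was computed over the members as a set. The steps were tested on simulated data. Each library is from a mouse of its own, and the labels give no pairing. Reads that were unmapped, mapped to several places (10.4% to 13.1%), lay in no gene or lay in several stayed out of library sizes, which left 66.2% to 69.2% of reads. A count of 0 allows up to 3 counts, or 0.0573 to 0.0668 CPM, for counting error only. Positions are from GENCODE vM21, which holds 54409 of the 54446 identifiers, and RPKM used the union of its exons. The genes named are all members, *Fmo5*, some markers of cell types, and those of 3 lists of related genes that passed the test or complete a step. *Ppara* is named too, as are *Pdk2*, *Fabp5* and *Slc27a5* as examples of relatives, though none of these passed the test. Some genes of these lists are counted in them and not reported here by name. The members and lists were chosen with earlier results of these data known, so that the counts over them are descriptions. Comparison with genes of a mean of 500 or more was added after seeing the data.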

Additional observations from a re-analysis of the deposited data

How the results depend on the processing

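The number of members called by edgeR was 3, and it moved to 15 with DESeq2, to 17 with no filter except at least 1 count, and to 0 both with a mean of 500 or more set before the fit and with the counts of 1 strand. It was 4 with RLE size factors and 2 without the 20 most abundant genes in the scaling. Leaving out 1 mouse gave between 0 and 3 members: 0 without the first or second WT mouse or the first or second *Fmo5*-/- mouse, and 3 without the third of either genotype. The number of all genes called was 229, and it moved to 1395 with DESeq2, to 1989 with no filter and to 53 with the mean set before the fit, and leaving out 1 mouse gave between 31, the value with the first *Fmo5*-/- mouse left out, and 763, with the third of that genotype left out. The number of other pathway genes called was 3, against 10 with DESeq2, 15 with no filter and 1 with the mean set before the fit, and between 0 and 2 with 1 mouse left out. The median log2 fold change of the members stayed between -0.32 and -0.24 in all settings, -0.25 without the members on chromosome 3. The log2 fold change changed sign in some setting for 3 members, each within 0.1 of 0: *Aldh9a1* was at 0.0068 and *Etfb* at 0.0086 with the mean set before the fit, *Acad12* was at 0.016 without the second WT mouse, and *Etfb* was at 0.0035 and 0.039 without the first and the third WT mouse and at 0.095 with the first *Fmo5*-/- mouse left out. Over the fits with 1 mouse left out, *Acad12* ran from -0.12 to 0.016 and *Etfb* from -0.20 to 0.095. The other 35 members kept their sign in every 1 of the 12 settings in which they were fitted. The cause of these moves was not tested. No paired analysis was possible because the labels give the mice no shared numbers. Depth limits *Cpt1b* (20.1 to 29.7 normalized counts in WT mice) and *Oxct1* (176 to 202), the members with the fewest counts, more than the others.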
